A study of Homo sapiens with 6 samples.

Results

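The genes of the subunits of RNA polymerases I, II and III (Pol I, Pol II and Pol III) were examined in the human colorectal cancer line HT-29 after RNA interference against the long noncoding RNAs HOXA-AS3 and HOXB-AS3. They were taken as the protein-coding genes whose symbol starts with POLR1, POLR2 or POLR3 and a letter, by Entrez identifier, and 33 of the 27434 rows of the expression tables met this rule. All 33 passed the filter on low counts, which 13034 rows passed. By the enzyme that holds the protein, 6 belong to Pol I, 2 to Pol I and III, 5 to all 3 enzymes, 10 to Pol II and 10 to Pol III.

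Cells were transfected with pooled siRNAs that target HOXA-AS3 (siHOXA-AS3) or HOXB-AS3 (siHOXB-AS3), or with a non-targeting pool (siNT), and RNA was sequenced 48 h later from 2 libraries per condition. The sample labels give 10 nM siRNA, and the study's methods state another concentration. All cells were of 1 line, a knockdown (KD) by a pool does not separate the effects of its single siRNAs, and nothing states whether the libraries of a condition came from separate cultures, so p-values measure only the spread between these libraries. The KDs were made to ask how transcription across the genome responds to loss of each lncRNA. HOXA-AS3 had 38 and 18 counts in siNT and 12 and 12 in siHOXA-AS3 (log2 fold change -1.09, SE 0.403, adjusted p = 0.711), so that its KD did not pass the test at this depth. HOXB-AS3 had 303 and 213 counts in siNT and 67 and 76 in siHOXB-AS3 (log2 fold change -1.96, SE 0.248, adjusted p = 0.0678).

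Library totals ranged from 15998518 to 26263938 counts, and the subunits had between 99 and 12333 counts per library. All 10 markers of colon epithelium passed the count filter, but CDX2 lay near the floor, at a mean of 0.192 FPKM (fragments scaled by transcript length and sequencing depth). None of 8 markers of blood, endothelial, stromal and liver cells passed it, although HBB had a higher mean than CDX2, at 0.347 FPKM. The summed level of these 8 was 0.33 to 0.82 FPKM per library, and COL1A2 and ALB were listed at 0 in all libraries. The siHOXA-AS3 libraries stood further apart than the others. Over all genes tested, replicates differed with an SD of 0.78 on the log2 scale in siHOXA-AS3, against 0.50 in siNT and 0.46 in siHOXB-AS3. Values in bulk RNA cannot tell fewer cells of a kind from less RNA per cell.

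Pol I makes the large ribosomal RNA precursor, Pol II makes messenger RNAs and most long noncoding RNAs, and Pol III makes transfer RNAs, 5S ribosomal RNA and other short RNAs. Each enzyme is built around its largest and second largest subunits, which form the active site, and 5 small subunits are common to the 3 enzymes. Pol I and Pol III also share a pair of assembly subunits, and each enzyme has a stalk and further subunits of its own. The enzymes serve growth in all cells, and dividing cells such as colorectal cancer lines need ample ribosomal and transfer RNA.

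RefSeq windows of 300 bases around the gene start, 250 before it and 50 after it, were matched by symbol to 24 of the 33 subunit genes. The windows are shown for the 4 genes with an unadjusted p under 0.05 in a KD against siNT, in lower case and 5′ to 3′ on the gene's strand, with matches to 6 short motifs in capitals. In build GRCh38.p14, POLR3GL lies at chr1:145964440-145964739 (plus strand), POLR2H at chr3:184361460-184361759 (plus strand, the first listed of its starts), POLR2D at chr2:127858106-127858405 (minus strand) and POLR3K at chr16:53559-53858 (minus strand).
POLR3GL: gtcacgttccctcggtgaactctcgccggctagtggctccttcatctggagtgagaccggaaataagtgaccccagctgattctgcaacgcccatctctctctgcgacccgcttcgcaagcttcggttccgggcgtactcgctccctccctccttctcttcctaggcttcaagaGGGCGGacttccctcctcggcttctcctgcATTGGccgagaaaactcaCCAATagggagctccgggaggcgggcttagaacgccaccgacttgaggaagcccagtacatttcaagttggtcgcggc
POLR2H: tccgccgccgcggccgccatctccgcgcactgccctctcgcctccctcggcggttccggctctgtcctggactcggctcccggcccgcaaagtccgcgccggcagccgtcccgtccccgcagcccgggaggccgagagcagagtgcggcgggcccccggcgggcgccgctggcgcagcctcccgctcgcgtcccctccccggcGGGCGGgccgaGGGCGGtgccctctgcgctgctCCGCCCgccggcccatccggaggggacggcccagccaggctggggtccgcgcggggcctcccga
POLR2D: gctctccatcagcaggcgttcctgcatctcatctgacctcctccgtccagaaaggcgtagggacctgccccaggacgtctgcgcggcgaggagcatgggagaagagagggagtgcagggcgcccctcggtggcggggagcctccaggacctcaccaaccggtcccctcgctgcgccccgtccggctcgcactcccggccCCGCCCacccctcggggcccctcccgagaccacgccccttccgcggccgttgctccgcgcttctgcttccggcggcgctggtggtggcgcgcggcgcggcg
POLR3K: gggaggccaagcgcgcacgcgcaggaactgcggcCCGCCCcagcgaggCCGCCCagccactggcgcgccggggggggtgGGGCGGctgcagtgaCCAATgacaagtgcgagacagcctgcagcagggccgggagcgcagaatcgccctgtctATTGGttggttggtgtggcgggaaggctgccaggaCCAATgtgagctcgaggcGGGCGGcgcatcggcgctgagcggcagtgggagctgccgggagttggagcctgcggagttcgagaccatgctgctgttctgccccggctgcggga

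The motifs were searched on both strands, and none of the matches shown overlapped another. The SP1 box GGGCGG was in 16 of the 24 windows (66.7%) and in 44.6% of all 27305 windows, and all 4 windows shown hold it. The CCAAT box CCAAT was in 5 windows (20.8%, against 35.7% of all), among them those of POLR3GL and POLR3K, and the TATA box TATAAA was in 1 (4.17%, against 12% of all). The E-box CACGTG was in 4 windows (16.7%, against 7.43%), those of POLR1G, POLR3A, POLR3C and POLR3E. The ETS core CCGGAAGT was in 4 (16.7%, against 4.44%) and the cAMP response element TGACGTCA in 1, that of POLR1H (4.17%, against 1.98%). The windows had a median GC content of 60.7%, against 58.3% for all. A match is a run of letters and not a site known to be bound.

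In control cells the subunit genes differed widely in level. Mean FPKM in siNT ran from 490 for POLR1D, which encodes an assembly subunit of Pol I and III, to 2.26 for POLR3G, the alpha form of the Pol III subunit RPC7. The median was 20.3, against 7.12 over all genes tested, and 23 of the 33 genes lay above the latter. Subunits found only in Pol I and only in Pol III were low, with medians of 6.48 and 6.83 FPKM, those only in Pol II had a median of 28.4, and the 5 common subunits had 81.5. POLR2J (266 ± 7.44, SD, n = 2), POLR2L (237 ± 36.6) and POLR2G (236 ± 20.4) followed POLR1D, and the ranges of the siNT libraries of POLR2J and POLR2L, and of POLR2L and POLR2G, overlapped. Of the 32 neighbours in this order, 14 did not overlap between the siNT libraries. The largest subunits stood low within their enzymes, with 4.92 ± 0.382 FPKM for POLR1A, 6.09 ± 0.502 for POLR3A and 16.5 ± 0.332 for POLR2A, while POLR1H, which lets Pol I cleave its transcript, was the highest of Pol I at 43.3 ± 3.36 and POLR3K, its counterpart in Pol III, the highest of Pol III at 30.5 ± 1.88. The order by TPM was the same for all 33 genes, but TPM rescales FPKM by a constant within a library, so this is no separate check.

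**Figure D1:**
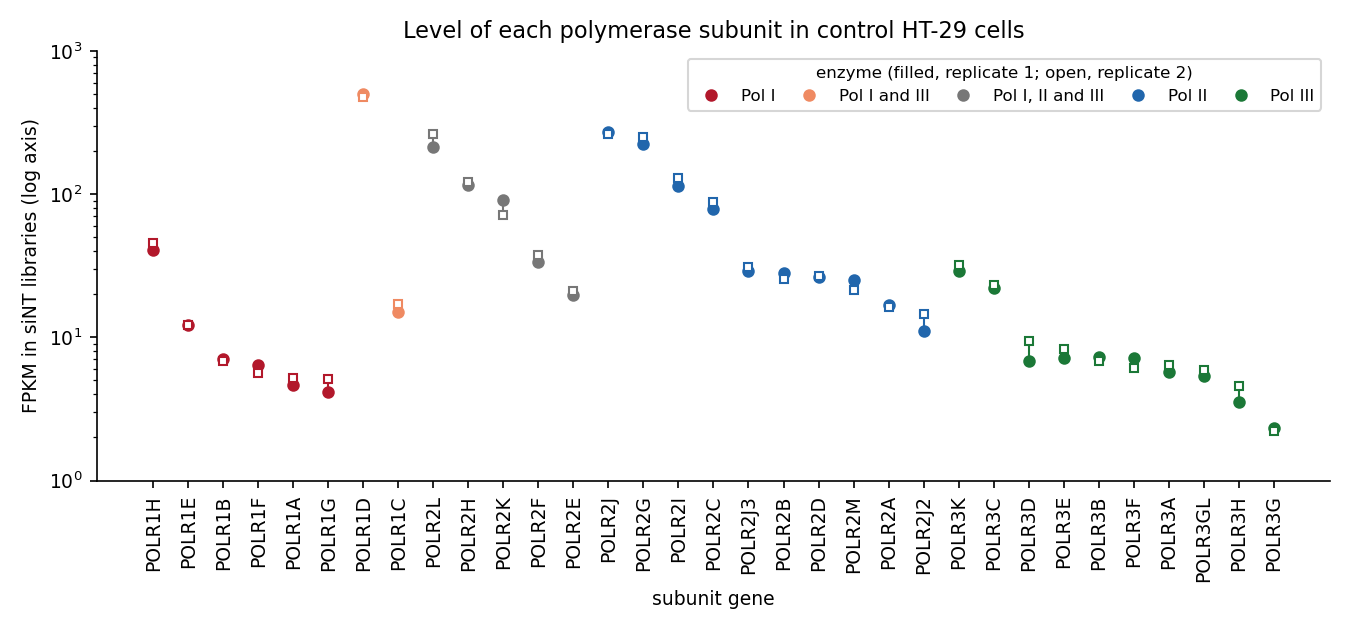
FPKM of the 33 subunit genes in both siNT libraries (log axis), grouped by enzyme and ordered by level. POLR1D is the highest at 490 and POLR3G the lowest at 2.26, and Pol I and Pol III subunits lie mostly below 10 FPKM.

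No subunit gene passed edgeR's quasi-likelihood test in either KD. Against siNT, 0 of 33 were called in siHOXA-AS3 (0% of all genes tested) and 0 of 33 in siHOXB-AS3 (0.0614% of all genes), at an adjusted p under 0.05. DESeq2 also called 0 of 33 in both (0.391% and 2.71% of its genes), as did limma-trend on FPKM. At an unadjusted p under 0.05 there were 3 of 33 in siHOXA-AS3 (6.16% of all genes), with POLR3GL higher and POLR2H and POLR2D lower, and 2 of 33 in siHOXB-AS3 (12.2% of all genes), POLR2D and POLR3K, both higher. The median log2 fold change of the 33 genes was 0.00 in siHOXA-AS3 and 0.18 in siHOXB-AS3, beside 0.01 and -0.01 over all genes tested.

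The libraries were also compared by position. In siHOXB-AS3, both libraries lay above both siNT libraries for 17 of 33 genes (30.9% of all genes) and below both for 4 of 33 (30.9% of all genes). In siHOXA-AS3 they lay above both for 3 of 33 (12.5% of all genes) and below both for 6 of 33 (16.1% of all genes). Both comparisons use the same siNT libraries. The share above in siHOXB-AS3 is larger than that of all genes and the share below smaller, which describes these 6 libraries and was not tested for the list.

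**Figure D2:**
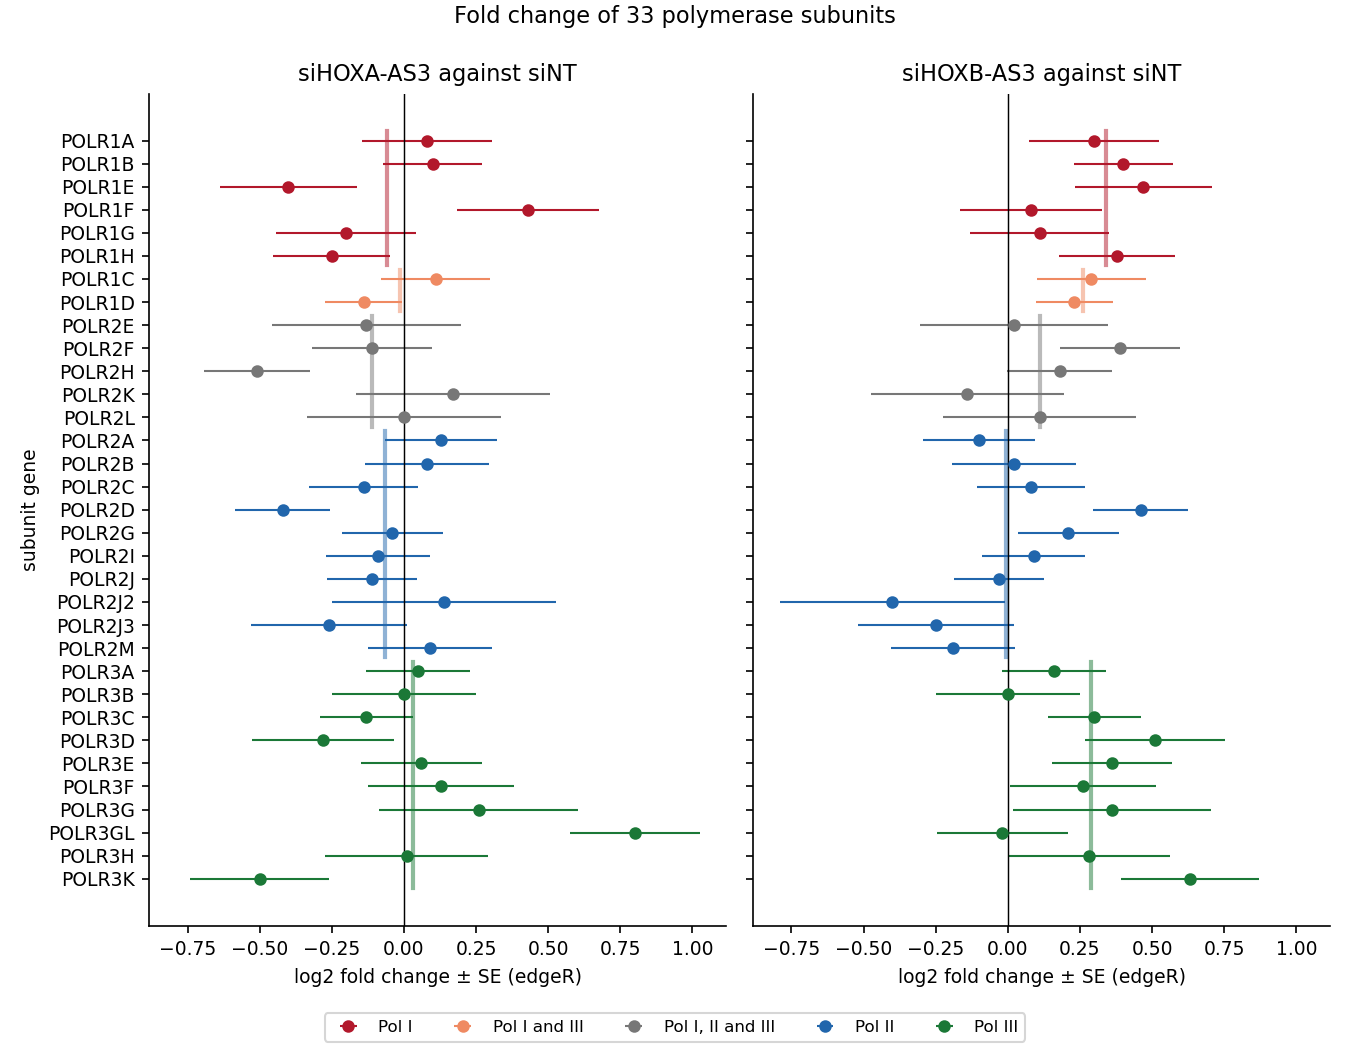
Log2 fold change against siNT with its standard error (edgeR, 2 libraries a group) for each subunit gene, with siHOXA-AS3 on the left and siHOXB-AS3 on the right. Vertical bars are the class medians, which in siHOXB-AS3 lie at 0.34 for Pol I, 0.29 for Pol III and -0.01 for Pol II. The Pol II median is 0.05 without the joined rows of POLR2J2 and POLR2M.

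The 17 genes that stood higher in both siHOXB-AS3 libraries lay mostly in Pol I and Pol III. Over all genes, 30.9% stood above siNT in both siHOXB-AS3 libraries and 30.9% below. A positive log2 fold change in siHOXB-AS3 was found for 6430 of the 13034 genes tested. The counts of the classes are read beside these values. All 6 Pol I subunits had a positive log2 fold change in siHOXB-AS3, with a median of 0.34, and for 4 of them both libraries stood above siNT. With the siNT mean set to 0, the log2 CPM (counts scaled to a common library size) of the Pol I subunits had a median of 0.28 and 0.39 in the siHOXB-AS3 libraries, and -0.05 and 0.05 in the siNT libraries themselves. Of the 10 Pol III subunits, 9 had a positive log2 fold change (median 0.29) and 7 stood above siNT in both libraries, with library medians of 0.25 and 0.35 beside -0.07 and 0.07. Both subunits shared by Pol I and III, POLR1C and POLR1D, also stood above (0.29, SE 0.189, and 0.23, SE 0.133). Among the 5 common subunits 2 stood above, and their median was 0.11. The 10 Pol II subunits had a median of -0.01, with 2 above siNT in both libraries and 4 below. The 4 below were POLR2J, POLR2J2, POLR2J3 and POLR2M, whose values are uncertain because of shared reads or joined rows. Without the joined rows of POLR2J2 and POLR2M the Pol II median was 0.05. The counts of 2 of 5, 2 of 10 and 4 of 10 lie near the shares of all genes. The difference between the classes was not tested. With a GC trend removed per library the medians were 0.40 for Pol I, 0.33 for Pol III, 0.24 for the common subunits and 0.03 for Pol II.

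**Figure D3:**
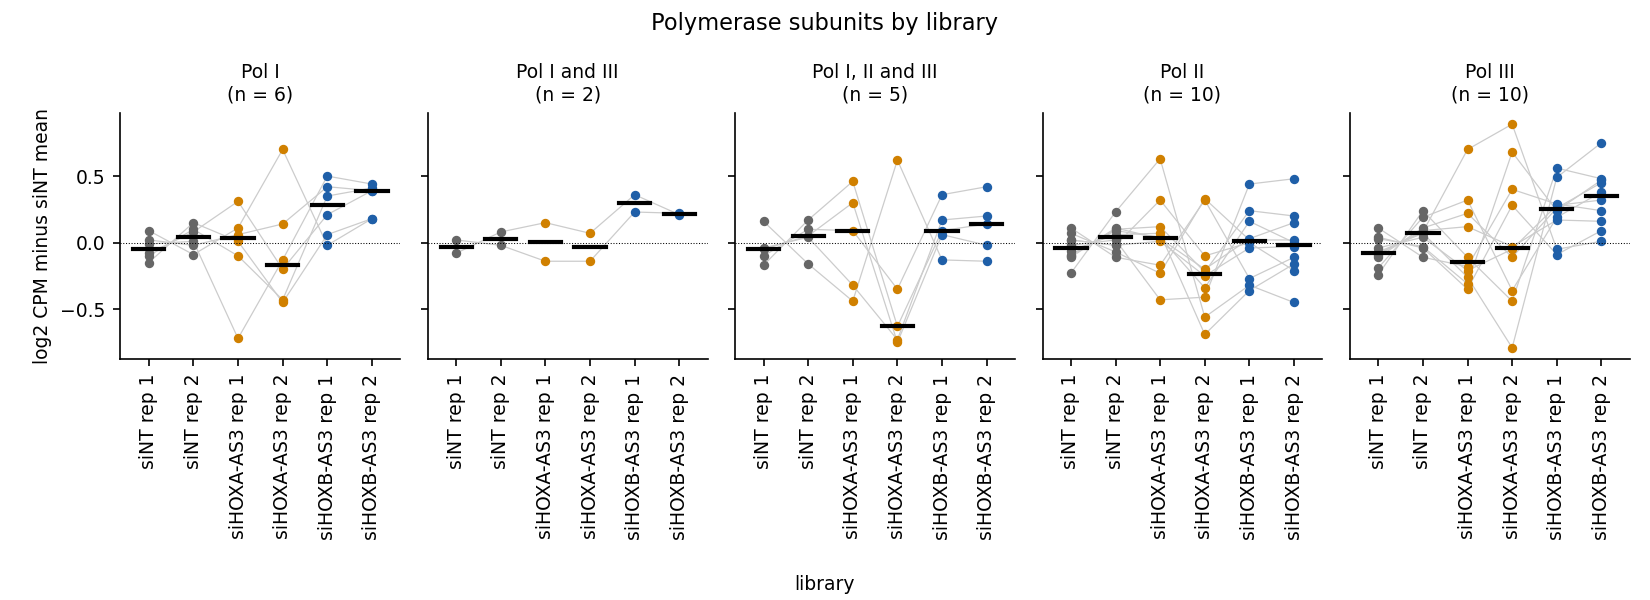
Log2 CPM minus the siNT mean for each subunit gene (points, joined by grey lines) in the 6 libraries, by class, with black bars for class medians. The Pol I and Pol III medians of both siHOXB-AS3 libraries lie at 0.25 to 0.39, and the common subunits drop to -0.63 in siHOXA-AS3 replicate 2.

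Among Pol I subunits, POLR1A, the largest, read 4.65 and 5.19 FPKM in siNT, 6.07 and 4.23 in siHOXA-AS3, and 5.5 and 6.21 in siHOXB-AS3. Its siHOXA-AS3 libraries spanned those of siNT and its siHOXB-AS3 libraries lay above them (log2 fold change 0.30, SE 0.225, adjusted p = 0.665). POLR1B, the second largest, read 7.08 and 6.83 FPKM in siNT, 7.2 and 7.62 in siHOXA-AS3, and 9.01 and 8.84 in siHOXB-AS3. Both KDs lay above siNT, with log2 fold changes of 0.10 (SE 0.172, adjusted p = 0.997) and 0.40 (SE 0.172, adjusted p = 0.412). POLR1E, of the dimer that helps Pol I start and elongate, read 12.1 FPKM in both siNT libraries, 7.35 and 11 in siHOXA-AS3, and 16.6 and 15.9 in siHOXB-AS3. It was thus lower in one KD (-0.40, SE 0.239, adjusted p = 0.924) and higher in the other (0.47, SE 0.237, adjusted p = 0.503), without passing the test in either.

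POLR1H read 40.9 and 45.7 FPKM in siNT, 40.5 and 31.6 in siHOXA-AS3, and 53.6 and 54.2 in siHOXB-AS3. Only its siHOXB-AS3 libraries were clear of siNT on the log2 CPM scale (0.38, SE 0.201, adjusted p = 0.527). POLR1F, the stalk subunit that contacts the initiation factor RRN3, read 6.38 and 5.63 FPKM in siNT, 6.46 and 9.67 in siHOXA-AS3, and 5.73 and 6.56 in siHOXB-AS3. Its siHOXA-AS3 value was the second highest of the 33 genes there (0.43, SE 0.246, adjusted p = 0.91), but its libraries were far apart. POLR1D, at the highest level of all members, read 503 and 477 FPKM in siNT, 436 and 442 in siHOXA-AS3, and 584 and 574 in siHOXB-AS3, so that its 3 conditions did not overlap. The differences were small, at -0.14 (SE 0.133, adjusted p = 0.987) and 0.23 (SE 0.133, adjusted p = 0.567).

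In Pol II, both KDs overlapped siNT for the active site subunits on the log2 CPM scale, on which all overlaps between conditions were counted. POLR2A read 16.8 and 16.3 FPKM in siNT, 20.6 and 15.3 in siHOXA-AS3, and 16 and 13.8 in siHOXB-AS3, and POLR2B read 28.2 and 25.5, 22.9 and 33.5, and 26.3 in both siHOXB-AS3 libraries. POLR2D, which forms the stalk with POLR2G, read 26.2 and 26.7 FPKM in siNT, 19.6 and 19.7 in siHOXA-AS3, and 34.9 and 35.7 in siHOXB-AS3. Its replicates lay close together, the KDs stood on opposite sides of siNT, and neither difference passed the test (-0.42, SE 0.165, adjusted p = 0.752, and 0.46, SE 0.164, adjusted p = 0.31). Its partner POLR2G read 222 and 251 FPKM in siNT, 256 and 203 in siHOXA-AS3, and 270 and 259 in siHOXB-AS3, where its log2 fold change was 0.21 (SE 0.175, adjusted p = 0.693).

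The 4 Pol II genes that stood below siNT in both siHOXB-AS3 libraries were POLR2J, its copies POLR2J2 and POLR2J3, and POLR2M, which encodes a protein bound to a subset of Pol II. POLR2J, an assembly subunit, read 271 and 261 FPKM in siNT, 269 and 224 in siHOXA-AS3, and 252 and 251 in siHOXB-AS3 (-0.03, SE 0.156, adjusted p = 0.965), and its sign turned with a GC trend removed (0.07). POLR2J2 read 11 and 14.5 FPKM in siNT, 20 and 8.27 in siHOXA-AS3, and 10.6 and 8.85 in siHOXB-AS3 (-0.40, SE 0.391, adjusted p = 0.756). POLR2J3 read 28.9 and 31, 31.4 and 18.5, and 22.7 and 25.8 (-0.25, SE 0.27, adjusted p = 0.78). These 3 genes are near-identical copies between which the counting divides shared reads, the POLR2J2 row also holds UPK3BL1, and the POLR2M row also holds MYZAP and GCOM1 (-0.19, SE 0.216, adjusted p = 0.794), so their values are uncertain. Without the joined rows the Pol II median in siHOXB-AS3 was 0.05.

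The common subunits showed POLR2H and POLR2F apart from siNT. POLR2H read 116 and 121 FPKM in siNT, 94.7 and 71.3 in siHOXA-AS3, and 129 and 131 in siHOXB-AS3. It was the lowest of the 33 log2 fold changes in siHOXA-AS3 (-0.51, SE 0.183, adjusted p = 0.70) and 0.18 in siHOXB-AS3 (SE 0.182, adjusted p = 0.761). POLR2F read 33.3 and 37.4 FPKM in siNT, 33.7 and 26.4 in siHOXA-AS3, and 41.6 and 45.5 in siHOXB-AS3, above siNT in the last (0.39, SE 0.208, adjusted p = 0.536). Of the common subunits, POLR2K, POLR2L and POLR2E had the widest spread between the siHOXA-AS3 libraries. POLR2K read 59.9 and 124 FPKM there, POLR2L 325 and 153 and POLR2E 24.9 and 11.9. Their single fold changes are not given, but these enter the class medians, the figures and the counts of calls.

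In Pol III, the large subunit POLR3A read 5.73 and 6.44 FPKM in siNT, 6.58 and 5.89 in siHOXA-AS3, and 6.63 and 6.57 in siHOXB-AS3, where it stood just above siNT (0.16, SE 0.18, adjusted p = 0.787). POLR3B, the other active site subunit, overlapped in all conditions, at 7.24 and 6.78, 5.5 and 8.5, and 6.4 and 7.24. POLR3K, which serves cleavage and termination, read 29.1 and 31.8 FPKM in siNT, 25.5 and 17.6 in siHOXA-AS3, and 41.6 and 49.3 in siHOXB-AS3. It had the highest of the 33 log2 fold changes in siHOXB-AS3 (0.63, SE 0.239, adjusted p = 0.35) and the second lowest in siHOXA-AS3 (-0.50, SE 0.242, adjusted p = 0.865), and its 3 conditions did not overlap. POLR3D and POLR3E form the unit for termination and reinitiation. POLR3D read 6.8 and 9.45 FPKM in siNT, 7.41 and 5.86 in siHOXA-AS3, and 11.5 and 10.8 in siHOXB-AS3 (0.51, SE 0.244, adjusted p = 0.49), and its siNT libraries were themselves apart. POLR3E read 7.21 and 8.32, 9.04 and 7.09, and 9.01 and 10.2 (0.36, SE 0.208, adjusted p = 0.567 in siHOXB-AS3).

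The initiation subcomplex of Pol III joins POLR3C, POLR3F and 1 of 2 forms of RPC7, encoded by POLR3G and POLR3GL. POLR3C read 21.9 and 23.1 FPKM in siNT, 19.3 and 21.4 in siHOXA-AS3, and 26.4 and 27.1 in siHOXB-AS3, below siNT in the first KD (-0.13, SE 0.162, adjusted p = 0.997) and above it in the second (0.30, SE 0.162, adjusted p = 0.542). POLR3F had a log2 fold change of 0.26 in siHOXB-AS3 (SE 0.252, adjusted p = 0.75).

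POLR3GL, the RPC7 form found broadly in differentiated cells, was the member that stood furthest from siNT in siHOXA-AS3. It read 5.36 and 5.9 FPKM in siNT, 9.17 and 10.4 in siHOXA-AS3, and 5.26 and 5.45 in siHOXB-AS3. Both siHOXA-AS3 libraries were above the other 4, with a log2 fold change of 0.80 (SE 0.225, adjusted p = 0.61), while siHOXB-AS3 overlapped siNT. POLR3G, the form known from stem and tumour cells, read 2.32 and 2.21 FPKM in siNT, 1.82 and 3.6 in siHOXA-AS3, and 2.6 and 3.03 in siHOXB-AS3, and only the last were clear of siNT (0.36, SE 0.343, adjusted p = 0.743). POLR3GL made up 69.8% and 72.7% of the summed FPKM of both forms in siNT, 83.4% and 74.3% in siHOXA-AS3 and 66.9% and 64.3% in siHOXB-AS3. The 3 conditions did not overlap in this share, although the siHOXA-AS3 libraries differed most, since POLR3G itself differed between them.

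**Figure D4:**
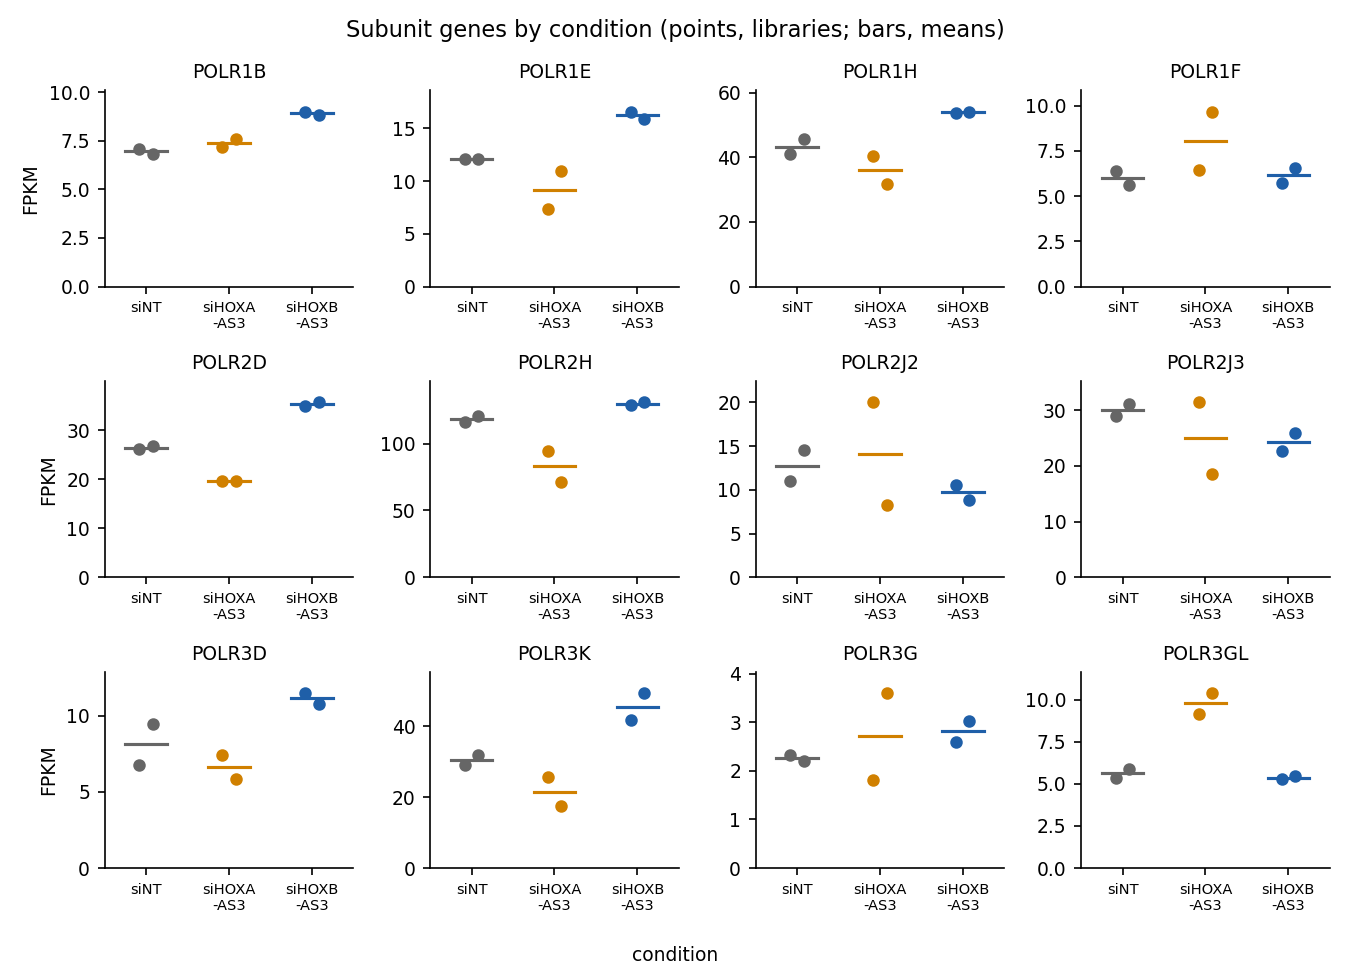
FPKM of 12 subunit genes in each library (points) with the mean of the condition (bars), each panel on its own axis from 0. POLR3GL stands at 9.17 and 10.4 in siHOXA-AS3 and at 5.26 to 5.9 elsewhere, and POLR2D and POLR3K lie on opposite sides of siNT in the KDs.

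The siHOXA-AS3 replicates differed along the GC content of the transcripts, and so did the members. Replicate 2 minus replicate 1 ran from -1.19 (POLR2J2) to 1.05 (POLR2K) on the log2 scale in siHOXA-AS3, and 4 genes were at least 2-fold apart. Across the 33 genes, which are not independent replicates and come from the same pair of libraries, this difference had a Pearson r of -0.85 with GC content. In siNT the r was 0.72, over a smaller range of -0.33 to 0.48, and in siHOXB-AS3 it was -0.11, over -0.21 to 0.26. Over all genes tested that had a GC value, the trend was computed for the opposite order, replicate 1 minus replicate 2. There the r was 0.74 in siHOXA-AS3, -0.38 in siNT and 0.13 in siHOXB-AS3, so the trend was not particular to the members. The log2 fold changes against siNT had an r with GC content of -0.32 in siHOXA-AS3 and -0.08 in siHOXB-AS3. The GC content of the 4 genes with promoters shown was 49.8% for POLR3GL, 48.1% for POLR2D, 48% for POLR3K and 53.5% for POLR2H, beside a median of 49.8% over all genes tested.

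**Figure D5:**
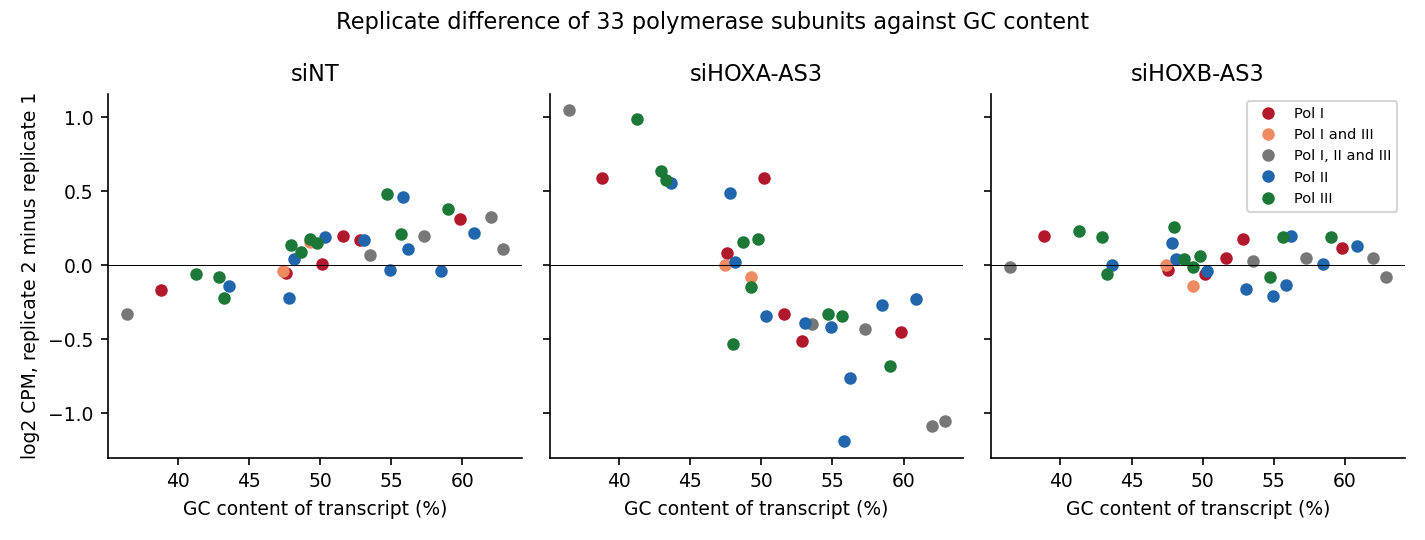
Difference between replicates (log2 CPM, replicate 2 minus replicate 1) against the GC content of the transcript for the 33 subunit genes in each condition, coloured by class. In siHOXA-AS3 the points fall from 1.05 at the lowest GC content to below -1 at the highest, and in siHOXB-AS3 they stay between -0.21 and 0.26.

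Calls appeared in several other fits. With a GC trend removed per library, siHOXA-AS3 gave 2 calls, POLR3GL higher (1.80% of all genes) and POLR2H lower (2.20% of all genes). In siHOXB-AS3 the same fit called 6 members higher (7.20% of all genes) and none lower (6.63% of all genes), POLR1B, POLR1H, POLR2D, POLR2F, POLR3D and POLR3E. A fit of siHOXB-AS3 and siNT alone called 8 higher (11.2% of its genes) and none lower (12.1%), with POLR1E, POLR3C and POLR3K in place of POLR3E. Leaving out siHOXA-AS3 replicate 1 or 2 from the fit of all libraries gave 9 higher members in siHOXB-AS3 (11.1% and 10.9% of the genes tested), and 13 and 6 calls in siHOXA-AS3 (30.3% and 17.9%). In these fits siHOXA-AS3 is a single library, taken to vary like the other groups. Without replicate 1, 5 members were called higher and 8 lower in siHOXA-AS3, and without replicate 2, 3 and 3, with POLR2K, POLR2L and POLR2J2 called in opposite directions by the 2 fits. Whether the SD and the GC trend of the siHOXA-AS3 replicates given above play a part in these calls was not tested. No member was called lower in siHOXB-AS3 against siNT under any of the alternatives run.

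The KDs were also set against each other, which asks whether the members respond differently to loss of the 2 lncRNAs. No member was called by edgeR (1.57% of all genes), while 10 of 33 had an unadjusted p under 0.05 (18.4% of all genes), 9 of them higher in siHOXB-AS3. For 15 of 33 both siHOXB-AS3 libraries lay above both siHOXA-AS3 libraries (22.8% of all genes), and for 1 of 33, POLR3GL, below (22.5% of all genes). The largest differences were POLR3K (1.13, SE 0.242, adjusted p = 0.0789) and POLR2D (0.88, SE 0.165, adjusted p = 0.0547), followed by POLR1E (0.87, SE 0.239, adjusted p = 0.127), POLR3D (0.79, SE 0.246, adjusted p = 0.161) and POLR2H (0.69, SE 0.183, adjusted p = 0.119). POLR3GL was at -0.82 (SE 0.224, adjusted p = 0.122). DESeq2 called POLR3K, POLR2D, POLR2H and POLR1E higher (2.31% of its genes), a fit without the filter called POLR3K and POLR2D (1.26%), and 1 with a gene length trend removed called POLR2D (0.867%). With the GC trend removed 10 members were higher (14.1% of all genes) and POLR3GL was lower (12.0%), and without siHOXA-AS3 replicate 1 or 2, which leaves that arm a single library, there were 23 calls (18 higher and 5 lower, beside 37.8% of all genes) and 13 calls (9 higher and 4 lower, beside 36.0%), with POLR2L higher in one fit and lower in the other. For 6 of 33 members both siHOXA-AS3 libraries lay below both siNT libraries and both siHOXB-AS3 libraries above them, as for 5.00% of all genes.

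The factors that act with the polymerases were read from lists of 4 to 21 genes, all of which were expressed enough to be tested, and none of their genes was called by edgeR against siNT. Beside the Pol I subunits, the 8 Pol I initiation factors had a median log2 fold change of -0.06 in siHOXA-AS3 and 0.06 in siHOXB-AS3. By position, 3 of the 8 stood above siNT in both siHOXB-AS3 libraries and 2 below, beside 30.9% of all genes each way. Their lowest value in siHOXB-AS3 was RRN3, the factor that brings Pol I to its promoter (-0.51, SE 0.168, adjusted p = 0.281). RRN3 read 25.6 and 25.8 FPKM in siNT and 17.3 and 17.4 in siHOXB-AS3. The other below was UBTF (-0.46, SE 0.187, adjusted p = 0.392), with 19.3 and 19.9 FPKM in siNT and 13.3 and 14.4 in siHOXB-AS3. The highest was TAF1D, of the Pol I selectivity factor (0.59, SE 0.402, adjusted p = 0.626), and in siHOXA-AS3 the extremes were TBP (0.12, SE 0.185) and TAF1A (-0.32, SE 0.29). With each library left out in turn TAF1A ran from -0.68 to -0.02.

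The 18 Pol III initiation factors and regulators had medians of 0.00 and 0.14, and 7 of 18 stood above siNT in both siHOXB-AS3 libraries, beside 30.9% of all genes. This list holds CRCP, a Pol III subunit whose symbol the rule does not take, with 16.1 and 15.9 FPKM in siNT and 19.8 and 17.3 in siHOXB-AS3 (0.26, SE 0.181, adjusted p = 0.628). SNAPC5, of the complex that starts small nuclear RNA genes, was the highest in siHOXB-AS3 (0.74, SE 0.188, adjusted p = 0.184), with 31.6 and 35.2 FPKM in siNT and 56.8 and 50.8 in siHOXB-AS3. MAF1, a repressor of Pol III, was the lowest there (-0.23, SE 0.249, adjusted p = 0.788). In siHOXA-AS3 SNAPC2 was the highest (0.44, SE 0.309) and BRF2, a TFIIB-related factor, the lowest (-0.56, SE 0.319), both with an adjusted p over 0.9, and BRF2 ran from -0.96 to -0.27 with each library left out.

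For Pol II, the 18 general transcription factors had medians of 0.11 in siHOXA-AS3 and 0.28 in siHOXB-AS3, and 13 of them stood above siNT in both siHOXB-AS3 libraries, beside 30.9% of all genes. The lists were not tested against each other. GTF2H2, of the repair and initiation factor TFIIH, was the highest (0.80, SE 0.392, adjusted p = 0.493) and ERCC3, a helicase of TFIIH, the lowest (-0.13, SE 0.173, adjusted p = 0.836). GTF2A1 (0.43, SE 0.311) and GTF2F1 (-0.31, SE 0.234) were the extremes in siHOXA-AS3, and GTF2F1 ran from -0.67 to -0.02 with each library left out. The 21 elongation factors had medians of -0.07 and 0.08, from SSRP1, of the histone chaperone FACT (-0.36 in both KDs, SE 0.167), to ELL2 in siHOXA-AS3 (0.41, SE 0.208) and ELL in siHOXB-AS3 (0.51, SE 0.262, adjusted p = 0.507). By position, 8 of the 21 elongation factors stood above siNT in both siHOXB-AS3 libraries and 3 below, beside 30.9% of all genes each way. The 16 assembly and import factors had medians of -0.08 and 0.09, with 7 above siNT in both siHOXB-AS3 libraries and 1 below. Their extremes were RPAP2 (0.35, SE 0.31) and PDRG1 (-0.37, SE 0.199) in siHOXA-AS3, and RUVBL1 (0.44, SE 0.197, adjusted p = 0.447) and GPN1, which serves import of Pol II (-0.42, SE 0.159, adjusted p = 0.347), in siHOXB-AS3. The 4 genes of mitochondrial transcription, a separate system, had medians of 0.01 and 0.00, from TFAM (-0.32, SE 0.311) to TFB2M (0.12, SE 0.27) in siHOXA-AS3 and from POLRMT (-0.18, SE 0.377) to TFB2M (0.75, SE 0.27, adjusted p = 0.324) in siHOXB-AS3.

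Beside the higher values of Pol I and Pol III subunits in siHOXB-AS3, 7 of the 10 colon markers lay below siNT in both libraries (30.9% of all genes). CDX2, which lay near the floor, was among them, and 2 markers, KRT8 and KRT18, lay above. The median log2 fold change of the list was -0.41. CEACAM5 fell (-1.63, edgeR adjusted p = 0.0492), a call made under 13 of 18 settings and lost under the replicate block (adjusted p = 0.138) and without either siNT or either siHOXB-AS3 library. The summed level of the colon markers was 4499 and 4836 FPKM in siNT and 4199 and 4221 in siHOXB-AS3, and their part in the subunit values was not tested. The exons of 18 members overlap those of other genes in GENCODE v29, over more than 40% of their length for POLR1G, POLR1H and POLR2I, all with a gene on the other strand. Whether counting used the strand is not given in the sources used here, so reads of these 3 genes and their partners may not have been told apart.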

How the data were processed

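Poly(A) RNA of HT-29 cells was sequenced from 6 libraries, 2 each for siNT, siHOXA-AS3 and siHOXB-AS3. The authors quantified reads over RefSeq genes with RSEM and deposited, for each library, expected counts, TPM and FPKM per gene. The submitters' processing notes name hg19 and RSEM, whereas the sources used here give no aligner, RSEM version or strand setting. Genes were named by Entrez identifier, and at most 0.0474% of a library's counts fell on rows that matched none. No 2 libraries agreed within sampling noise (smallest chi-square per degree of freedom 6.78).

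Deposited expected counts were rounded and tested with edgeR 4.0.16 (R 4.3.3) by the quasi-likelihood test on all 6 libraries, with group as the only term, filterByExpr at a minimum count of 10, TMM factors and Benjamini-Hochberg adjustment over 13034 genes at 0.05. The SE was taken from the fold change and its F statistic. Overlap between groups was counted on TMM-scaled log2 CPM, and deposited FPKM, which is per length, served to compare levels between genes. Alternatives were DESeq2 1.42.0, limma-trend 3.58.1 on log2(FPKM + 0.1) and log2(FPKM + 1), RLE factors or library totals, other filters, only the groups compared and a replicate block. Others were a trend on gene length or GC content removed per library (loess, span 0.5), each library left out in turn, and other class definitions. The scripts were tested on simulated counts.

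The members and lists were chosen with earlier results of these data known. Values per library were planned for the targeted lncRNAs, called members, the 2 highest and 2 lowest log2 fold changes of each KD, the 2 largest subunits of each enzyme, POLR3G and POLR3GL, and the copies of POLR2J; in each list of other factors, the highest and lowest of each KD were planned. The other members given by library, and CRCP and UBTF, were chosen after their values were seen. Promoter windows come from RefSeq on GRCh38.p14, a later build than hg19, and were used for sequence only. Protein sequences were not used here.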

Additional observations from a re-analysis of the deposited data

Results flagged for a closer look

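For 6 subunit genes every siHOXA-AS3 library lay below both siNT libraries and every siHOXB-AS3 library above them, so that the KDs stood on opposite sides of the same controls. Over all genes tested, 5.00% had this arrangement, which describes these 6 libraries and was not tested for the list. The log2 fold changes were -0.14 in siHOXA-AS3 and 0.23 in siHOXB-AS3 for POLR1D, -0.40 and 0.47 for POLR1E, -0.42 and 0.46 for POLR2D, -0.51 and 0.18 for POLR2H, -0.13 and 0.30 for POLR3C, and -0.50 and 0.63 for POLR3K. None passed edgeR's test against siNT. The difference itself, siHOXB-AS3 against siHOXA-AS3, had edgeR adjusted p-values of 0.206, 0.127, 0.0547, 0.119, 0.225 and 0.0789 in the same order. DESeq2 called it for POLR1E, POLR2D, POLR2H and POLR3K, beside 2.31% of its genes called higher. The 6 genes were picked by their arrangement in these same libraries, which fixes the direction of the difference, so these values are no separate support.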

How the results depend on the processing

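Each condition had 2 libraries, in which the members had 99 to 12333 counts. Of the fold changes recomputed for named genes, 963 kept direction and side of the threshold, 119 kept direction and passed it, and 6 turned; the cause was not tested. POLR2J in siHOXB-AS3 turned to 0.07 with the GC trend removed. With each library left out in turn, the siHOXA-AS3 fold changes ran from 0.00 to 0.78 for SNAPC2, -0.04 to 0.79 for GTF2A1, -0.12 to 0.70 for RPAP2, -0.31 to 0.46 for TFB2M and -0.85 to 0.07 for TFAM. POLR3GL in siHOXA-AS3 ran from 0.70 to 0.89 and was called under 3 of 18 settings, of which 2 left siHOXA-AS3 a single library, assumed to vary like the other groups.

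Members called went from 0 to 2 (siHOXA-AS3), 6 (siHOXB-AS3) and 11 (KD against KD) with the GC trend removed. That fit called 4%, 13.8% and 26.2% of all genes in the same order. With only the groups compared, members called went to 8 in siHOXB-AS3, beside 23.3% of the genes of that fit. KD against KD, members called went to 4 with DESeq2 (6.14% of its genes), 2 with no filter (3.99%) and 1 with the gene length trend removed (1.96%). With each library left out in turn they ran from 0 to 13, 0 to 9 and 0 to 23, the calls coming without siHOXA-AS3 replicate 1 or 2. The shares of all genes for those fits are given above with the calls. The replicate block gave 0 members in each comparison and, KD against KD, 0.0767% of all genes in place of 1.57%. Same-numbered libraries did not deviate together (correlations of replicate differences -0.283, -0.147 and 0.127 over 13034 genes), so the number was not taken as a pairing.

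Of the class medians, 156 stayed within the spread between replicates and 22 moved. That spread was the SD of the class median over the 2 libraries of the KD. It ran from 0.02 for Pol II in siHOXB-AS3 to 0.51 for the common subunits in siHOXA-AS3. Where it was wide, a median could change sign and still count as stayed. In siHOXA-AS3, subunits of Pol I and III went to 0.03 with the length trend removed, and with each library left out the common subunits ran from -0.64 to 0.10 and Pol III from -0.15 to 0.08. In siHOXB-AS3, Pol I gave 0.26 with limma on log2(FPKM + 1) and 0.25 to 0.39 with each library left out. The common subunits gave 0.06 with library totals, 0.07 with limma at both pseudocounts, 0.24 with the GC trend removed and 0.03 to 0.22 with each library left out. Pol II gave -0.05 with library totals and with limma at both pseudocounts, -0.03 with mean FPKM of at least 1, 0.03 with the length or the GC trend removed, -0.05 to 0.01 with each library left out, 0.02 with classes by symbol and 0.05 without joined rows. Pol III gave 0.21 with limma on log2(FPKM + 1) and 0.36 with the length trend removed.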
